A study of Mus musculus with 20 samples.

Results

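The comparison described here is that of brown adipose tissue (BAT) with inguinal white adipose tissue (iWAT) in animals with intact α4, and its members were chosen by the group labels alone: the 5 Control BAT and the 5 Control iWAT libraries, which are 10 of the 20 RNA-seq libraries of the series. Each library is poly(A) RNA from whole tissue of a male mouse of mixed C57Bl/6 background. Control animals carried floxed α4 (Igbp1) alleles but no Adiponectin-CreERT2 transgene, and like the knockout mice of the series they had received tamoxifen (100 mg/kg intraperitoneally, 5 injections over 6 days from 2 months of age), with tissue taken 1 week after recombination. The labels describe these animals as wild type, so they stand for normal fat only as tamoxifen-treated mice with loxP sites, and the other 10 libraries, from mice that lost α4 in adipocytes, enter only 1 alternative fit.

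Brown and white adipocytes both store triglyceride, but brown adipocytes are packed with mitochondria and dissipate the proton gradient as heat through uncoupling protein 1 (UCP1), driven by noradrenaline acting on β-adrenergic receptors and cAMP. White adipocytes hold a single large lipid droplet and secrete hormones such as leptin. Inguinal fat of mice can in addition contain scattered beige adipocytes, which switch on UCP1 in the cold, and the depots arise from different embryonic territories, a history that is written in their homeobox gene expression.

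The libraries held between 25031994 and 44050078 counts, and the totals of the depots were not separable by an exact two-sided permutation test (p = 0.0714). Of 25219 genes in the table, 14260 had enough counts to be tested with edgeR's quasi-likelihood test, and a gene was called when its Benjamini-Hochberg adjusted p was below 0.01 and the fold at least 2. By that rule 1030 genes (7.22% of those tested) were higher in BAT and 2092 (14.7%) were higher in iWAT, 3122 (21.9%) in all. The libraries of the depots did not overlap for 5305 genes (37.2%). These shares are the background against which the counts of each gene group are to be read, together with the median log2 fold change over all genes tested, −0.01 for BAT minus iWAT. Of the calls 33.0% were higher in BAT, and with library size in place of TMM scaling, which moved the median of all genes to −0.20, the share was 22.9%. Depot accounted for the first principal component (66.4% of variance), with all BAT libraries on one side and all iWAT libraries on the other.

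**Figure D1:**
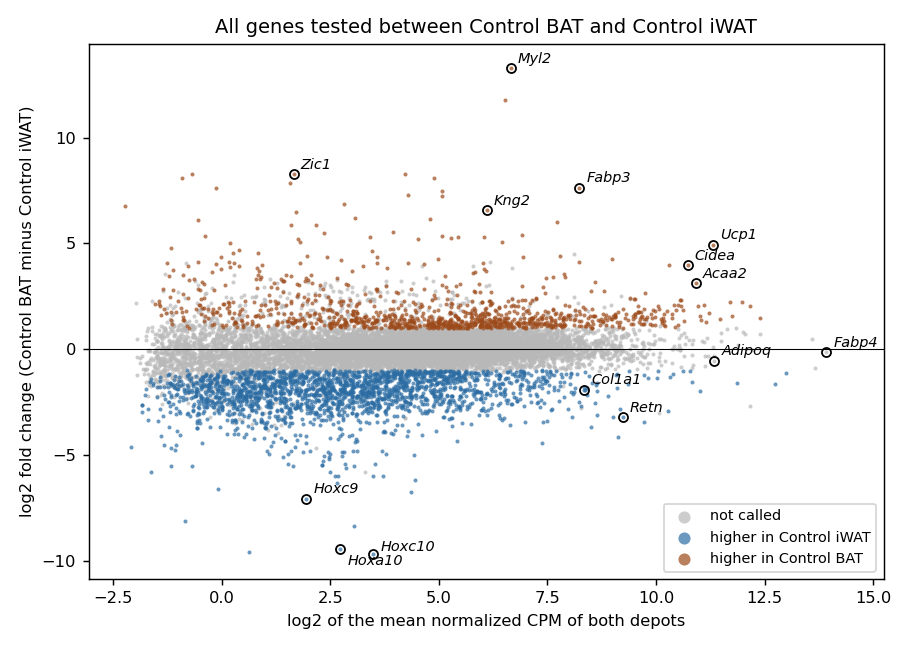
Each point is 1 of 14260 genes, with the log2 of its mean normalized count, scaled to library size as CPM, over both depots on the horizontal axis and its log2 fold change, Control BAT minus Control iWAT, on the vertical axis. Genes higher in BAT (1030) and in iWAT (2092) are coloured, Ucp1 lies at 4.94, Fabp4 lies near 0, and for genes with no more than 3 counts in every library of a depot, such as Zic1 and Hoxc10, the plotted value depends on the prior count of the fit.

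The tissue labels were checked against genes that define the depots. Ucp1 was between 3804 and 6299 CPM in every BAT library and no higher than 299.9 CPM in any iWAT library. Zic1, a zinc finger factor of dorsal mesoderm, was present in every BAT library, whereas Hoxc10, a posterior homeobox gene, was present in every iWAT library and nearly absent from BAT, so all 10 libraries matched their labels. RNA of other cell types differed between libraries. The 13 B cell genes in the table summed to 685 and 278 CPM in iWAT replicates 1 and 4, to between 27.9 and 30.6 CPM in the other iWAT libraries and to between 4.41 and 8.91 CPM in BAT. T cell genes behaved alike, with 370 and 431 CPM in the same pair of iWAT libraries and no more than 21.8 CPM elsewhere. Skeletal muscle genes summed to 10174 CPM in iWAT replicate 4 against at most 291 CPM in the other iWAT libraries, and to 1486 CPM in BAT replicate 1 against 8216 to 15242 CPM in the other BAT libraries. BAT replicate 1 was thus low in muscle genes among the BAT libraries only, and still lay above iWAT replicates 1, 2, 3 and 5. Many single genes are therefore given below with each library's value, and others only with a log2 fold change or with a mean and SD.

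**Figure D2:**
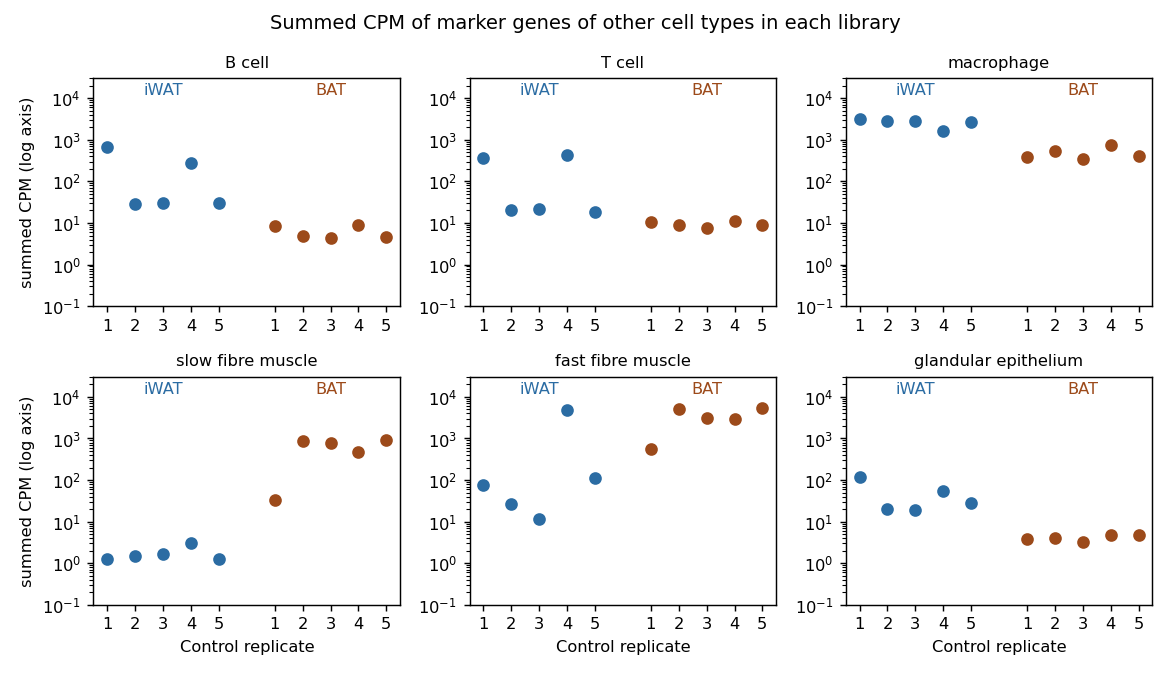
Each point is the summed normalized CPM, on a log axis, of marker genes of 1 cell type in 1 Control library, with the replicate number below. B and T cell genes are high in iWAT replicates 1 and 4, fast fibre muscle genes are as high in iWAT replicate 4 (4944 CPM) as in BAT, and slow fibre genes are low in every iWAT library (at most 3.04 CPM).

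The genes of the thermogenic brown adipocyte were nearly all higher in BAT. Of 41 tested members of that list 36 were higher in BAT and none in iWAT, with a median log2 fold change of 2.26, against 7.22% of all genes tested and a median of −0.01. Ucp1 (chr8:83290348-83298456, mm10) was 243, 232, 299.9, 16.9 and 4.91 CPM in iWAT replicates 1 to 5 and 6299, 5369, 4993, 3804 and 4062 CPM in BAT replicates 1 to 5 (log2 fold change 4.94 ± 0.95 (SE), edgeR adjusted p = 0.00123). BAT libraries thus lay within a 1.66-fold range while iWAT libraries spanned 61.1-fold, the 3 highest iWAT values still being far below the lowest BAT value. In bulk tissue a smaller number of cells that express a gene and less of its RNA per cell cannot be told apart. Cidea, a lipid droplet protein of brown adipocytes, was 126, 310.3, 435, 94.6 and 63.9 CPM in iWAT and 4008, 2592, 3436, 2785 and 3107 CPM in BAT (log2 fold change 3.95 ± 0.51 (SE), edgeR adjusted p = 8.74e-05). Dio2, the deiodinase that makes active thyroid hormone inside the cell, was 20.8, 10.6, 7.69, 1.93 and 1.29 CPM in iWAT and 151, 102, 129, 29.4 and 96.1 CPM in BAT (log2 fold change 3.58 ± 0.71 (SE), edgeR adjusted p = 0.00157). Without iWAT replicate 1 the log2 fold change of Dio2 was 4.24. As for Ucp1, iWAT replicates 4 and 5 were the lowest libraries for Dio2 and Cidea.

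The proximal promoters of Ucp1 and Dio2, from 250 bases before to 50 bases after the RefSeq start (GRCm38.p6), are shown because these genes couple adrenergic signalling to heat production. Capitals mark matches on either strand to 4 motifs: the cAMP response element TGACGTCA, the estrogen-related receptor site TCAAGGTCA, the NRF1 core GCGCATGC and the C/EBP site TTGCGCAA.
Ucp1, chr8:83290098-83290397, plus strand: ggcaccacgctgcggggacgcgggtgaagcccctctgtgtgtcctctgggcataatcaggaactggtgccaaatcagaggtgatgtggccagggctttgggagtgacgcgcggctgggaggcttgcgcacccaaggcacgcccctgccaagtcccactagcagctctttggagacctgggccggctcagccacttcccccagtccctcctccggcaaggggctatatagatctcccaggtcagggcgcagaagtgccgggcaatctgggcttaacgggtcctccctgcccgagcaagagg
Dio2, chr12:90738989-90739288, minus strand: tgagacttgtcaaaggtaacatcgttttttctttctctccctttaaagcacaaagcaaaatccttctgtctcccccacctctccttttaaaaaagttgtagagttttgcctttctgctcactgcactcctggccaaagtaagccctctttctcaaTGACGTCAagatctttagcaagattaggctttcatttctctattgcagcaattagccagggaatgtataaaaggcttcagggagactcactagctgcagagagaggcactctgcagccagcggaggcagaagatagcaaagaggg
Dio2 held a cAMP response element starting 95 bases before the start, and the Ucp1 window held none of the 4 motifs. A promoter was found for 11272 of the 14260 tested genes, which carry 11202 distinct gene identifiers. The cAMP response element occurred in 2.03% of all 27025 genes with a promoter in the table, in 3.40% of tested genes, in 3.33% of genes higher in BAT and in 1.64% of those higher in iWAT, so among genes higher in BAT its share was near that of tested genes.

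Fatty acid handling genes had some of the steepest differences of the thermogenic list. Fabp3, a cytosolic fatty acid carrier also abundant in heart and muscle, was 0.628, 2.398, 0.683, 11.02 and 0.2803 CPM in iWAT and 669, 478, 600.2, 376 and 865 CPM in BAT (log2 fold change 7.63 ± 1.0009 (SE), edgeR adjusted p = 9.58e-05). BAT replicate 1, the BAT library lowest in muscle genes, had the second highest Fabp3 value, and iWAT replicate 4, the one high in them, was the highest of iWAT. Without iWAT replicate 4 the log2 fold change was 9.24, and the part of muscle RNA in Fabp3 was not tested. Cpt1b, which admits long-chain fatty acids to mitochondria, was 39.8, 62.7, 103, 29.6 and 14.5 CPM in iWAT and 1095, 837, 1033, 939 and 901 CPM in BAT (log2 fold change 4.27 ± 0.46 (SE), edgeR adjusted p = 2.83e-05). Slc27a2 (a fatty acid transporter and acyl-CoA synthetase, log2 fold change 5.42), Acot11 (an acyl-CoA thioesterase, 4.41) and Pank1 (the first enzyme of coenzyme A synthesis, 4.12) were higher in BAT as well. Elovl3, a fatty acid elongase, was only 1.35 ± 0.6704 CPM (SD, n = 5) in iWAT and 22.6 ± 21.03 CPM in BAT, with BAT libraries from 6.40 to 57.7 CPM.

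Of the transcriptional regulators in the list, Esrrg, an estrogen-related receptor that drives mitochondrial genes, was 2.13, 2.73, 2.98, 0.923 and 0.477 CPM in iWAT and 17.8, 30.7, 25.9, 26.6 and 30.4 CPM in BAT (log2 fold change 3.84 ± 0.43 (SE), edgeR adjusted p = 3.64e-05). Its relative Esrra differed by 1.45 on the log2 scale, Ppara, the fatty acid sensing receptor, by 2.93, and the coactivators Ppargc1a and Ppargc1b by 1.99 and 2.31. Prdm16 and Ebf2, which specify brown fate, were also higher in BAT but by little more than the threshold: Prdm16 was 12.2, 13.1, 9.84, 11.7 and 11.3 CPM in iWAT and 37.6, 20.98, 29.4, 17.01 and 25.4 CPM in BAT (log2 fold change 1.16 ± 0.19 (SE), edgeR adjusted p = 0.000473), and Ebf2 had a log2 fold change of 1.12. The fate regulators were thus present in both depots, with much smaller differences than Ucp1. The 5 members that were not called were Pgam2 (log2 fold change 2.17, edgeR adjusted p = 0.186), Slc29a1 (1.26, adjusted p = 0.0104), Fbxo31 (0.999, adjusted p = 0.0115), Mtus1 (0.397, adjusted p = 0.0971) and Nrg4 (0.37, adjusted p = 0.191). Pgam2, a phosphoglycerate mutase of muscle, was 79.0 CPM in iWAT replicate 4 and at most 2.35 CPM in the other iWAT libraries. Fgf21, the 42nd member, had too few counts to test.

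**Figure D3:**
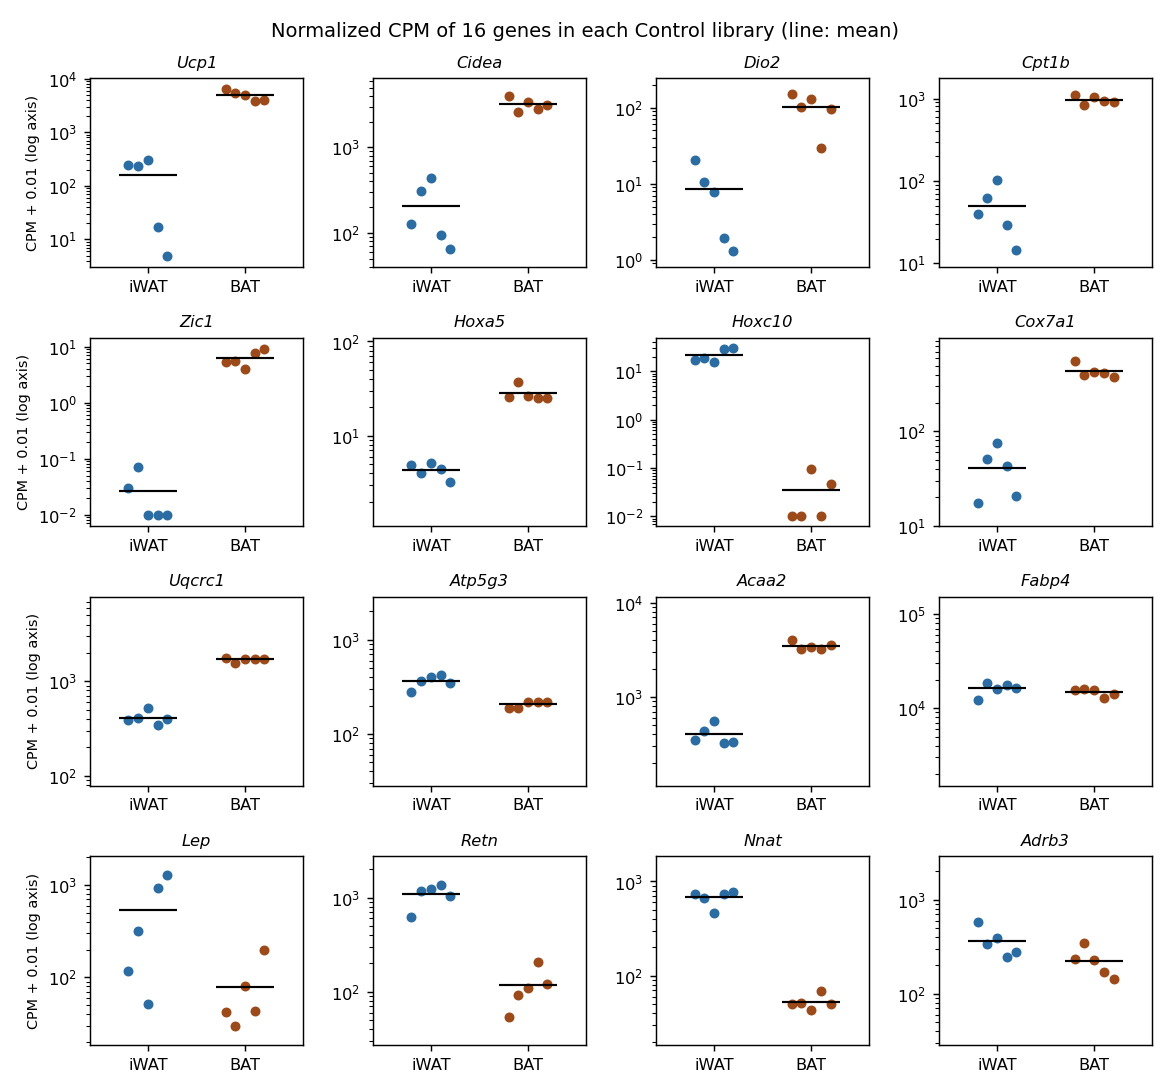
Each point is the normalized CPM of a gene in 1 of the 5 Control iWAT or 5 Control BAT libraries, plotted from replicate 1 to replicate 5 with 0.01 added, on a log axis, and the line is the group mean. Ucp1, Cidea, Dio2 and Cpt1b do not overlap between depots, iWAT replicates 4 and 5 are low for all of them, and Fabp4, Lep and Adrb3 overlap.

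Positional genes included sharp contrasts in both directions. Zic1 (chr9:91360345-91365799, mm10) was 5.28, 5.47, 3.89, 7.77 and 8.94 CPM in BAT and held at most 3 counts in any iWAT library, which makes it at least 73.97-fold higher in BAT when iWAT is set at 3 counts per library. Zic4, its neighbour on the same chromosome (chr9:91368972-91389348), had no count in any iWAT library and was at least 12.5-fold higher in BAT, at 1.25, 0.742, 0.813, 1.51 and 1.01 CPM. Of the 39 tested brown lineage and positional regulators 5 were higher in BAT (Zic1, Zic4, Eya1, Six4 and Gata2) and 13 in iWAT, with a median log2 fold change of −0.23. Their shares were 12.8% and 33.3%, against 7.22% and 14.7% of all genes tested. The 13 included limb and body wall factors such as Emx2 (log2 fold change −3.35), Shox2 (−2.76), Irx1 (−2.74), Twist2 (−2.599), Osr1 (−2.11), Prrx2 (−2.04) and Prrx1 (−1.36), and also genes listed for their part in the brown lineage, namely Epsti1 (−3.14), Bmp7 (−2.67), a growth factor that promotes brown adipogenesis, and En1 (−1.02). Lhx8, often used as a brown marker, was 3.16, 3.96, 3.59, 3.45 and 3.64 CPM in iWAT and 6.27, 4.13, 3.68, 12.5 and 7.63 CPM in BAT and was not called (edgeR adjusted p = 0.0229), while Irf4, Tbx15 and Zfp516, which take part in thermogenic control, had log2 fold changes of −0.47, −0.28 and −0.23 with overlapping libraries. The myogenic precursor genes Myf5, Pax3 and Pax7 were too low to test. Of the 5 genes higher in BAT, Eya1 and Six4, which are also expressed in muscle, had overlapping libraries, and the number higher in BAT was 3 with library-size scaling and again 3 without any 1 of iWAT replicates 2, 3 and 5 and BAT replicates 2 and 4.

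Hox genes, whose order along each chromosomal cluster follows the body axis, were divided by paralog number. Of 13 tested genes of paralog groups 1 to 5, 3 were higher in BAT and 1 in iWAT, and 10 had a log2 fold change above 0. Of 14 tested genes of groups 6 to 10, none were higher in BAT and 9 were higher in iWAT, and 12 were below 0. Hoxa5 was 4.88, 3.99, 5.07, 4.45 and 3.22 CPM in iWAT and 25.8, 37.01, 26.7, 25.3 and 25.4 CPM in BAT (log2 fold change 2.697 ± 0.16 (SE), edgeR adjusted p = 2.02e-06). Hoxa4, the gene next to it, was 1.24, 1.32, 1.54, 2.17 and 2.05 CPM in iWAT and 14.5, 15.9, 12.2, 10.98 and 13.4 CPM in BAT (log2 fold change 3.01 ± 0.21 (SE), edgeR adjusted p = 3.5e-06). Hoxc4 was the third gene higher in BAT (log2 fold change 1.101), and Hoxd3 (−1.78, at 0.656 CPM in iWAT) was the anterior gene higher in iWAT. Hoxd4 (−0.800) was lower in every BAT library but under 2-fold, and Hoxb5 (−0.397) overlapped.

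At the posterior end the contrast was close to all or none. Hoxc10 (chr15:102966796-102971897, mm10) was 17.6, 18.6, 15.7, 28.98 and 31.1 CPM in iWAT, and no BAT library held more than 3 counts, so it was at least 195-fold higher in iWAT. Hoxa10 (10.8, 16.5, 17.2, 11.7 and 9.87 CPM in iWAT) was at least 115-fold higher and Hoxc9 (8.97, 6.92, 7.54, 7.2995 and 7.32 CPM in iWAT) at least 66.3-fold higher. These were the only Hox genes at or under 3 counts in every library of 1 depot among those tested. Hoxa9 (log2 fold change −3.75) and Hoxc8 (−2.92) were next in size, and the Hoxb6 to Hoxb9 genes lay between −1.08 and −1.49. Hoxd8 and Hoxd9, by contrast, had overlapping libraries at log2 fold changes of 0.34 and −0.35. Over the whole family of 27 tested genes 3 were higher in BAT (11.1%, against 7.22% of all genes tested), 10 in iWAT (37.0%, against 14.7%) and 14 were not called. The median was −0.40, the same with the 3 genes set at their bounds. All 9 genes of groups 11 to 13 were at most 0.300 CPM in every library and were not tested.

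**Figure D4:**
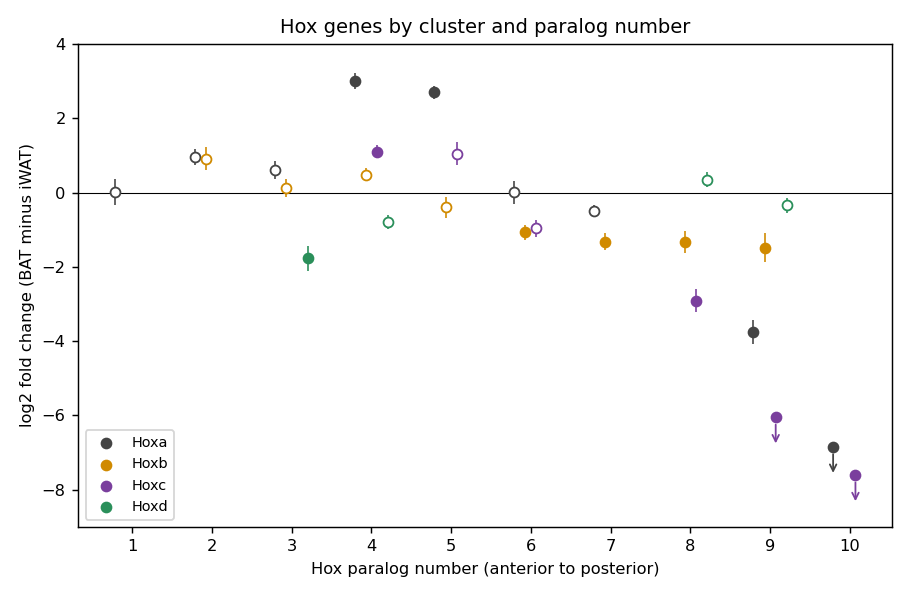
Each point is a tested Hox gene, with its paralog number on the horizontal axis and its log2 fold change, Control BAT minus Control iWAT, on the vertical axis. Filled points were called, open points were not, bars are SE, colours are the 4 clusters, and arrows mark Hoxc9, Hoxa10 and Hoxc10, drawn at the lower bound of their difference. Values rise above 0 around groups 4 and 5 and fall toward group 10.

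The respiratory chain was higher in BAT in every complex. Of 81 tested nuclear-encoded subunits of the 5 oxidative phosphorylation complexes 70 were higher in BAT (86.4%, against 7.22% of all genes tested) and none in iWAT, with a median log2 fold change of 1.44. The libraries of the depots did not overlap for 78 of the 81, against 37.2% of all genes tested. In complex I, the NADH dehydrogenase, 34 of 36 subunits were higher in BAT, and the whole range ran only from 0.77 to 1.86. Ndufs8, one of its iron-sulphur subunits, was 73.2, 89.3, 124, 69.9 and 74.2 CPM in iWAT and 372, 301, 309.98, 312 and 265 CPM in BAT (log2 fold change 1.86 ± 0.17 (SE), edgeR adjusted p = 1.23e-05). All 4 subunits of complex II, succinate dehydrogenase, were called, with Sdhb at 333, 481, 649, 399.8 and 389.9 CPM in iWAT and 1656, 1507, 1449, 1330 and 1272 CPM in BAT (log2 fold change 1.68 ± 0.18 (SE), edgeR adjusted p = 2.67e-05). All 9 subunits of complex III were called as well. Its core subunit Uqcrc1 was 392, 405, 523, 342 and 397 CPM in iWAT and 1790, 1563, 1712, 1727 and 1741 CPM in BAT (log2 fold change 2.05 ± 0.13 (SE), edgeR adjusted p = 2.03e-06).

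Promoters of a complex II and a complex III subunit are printed because both held a motif of a factor known to act on respiratory genes.
Sdhd, chr9:50603800-50604099, minus strand: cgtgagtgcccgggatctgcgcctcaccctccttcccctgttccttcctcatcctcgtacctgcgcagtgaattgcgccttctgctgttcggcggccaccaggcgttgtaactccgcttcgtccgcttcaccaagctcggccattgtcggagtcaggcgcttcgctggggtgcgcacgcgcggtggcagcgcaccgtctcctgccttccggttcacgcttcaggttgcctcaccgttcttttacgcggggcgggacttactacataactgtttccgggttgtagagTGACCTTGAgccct
Uqcrc1, chr9:108936398-108936697, plus strand: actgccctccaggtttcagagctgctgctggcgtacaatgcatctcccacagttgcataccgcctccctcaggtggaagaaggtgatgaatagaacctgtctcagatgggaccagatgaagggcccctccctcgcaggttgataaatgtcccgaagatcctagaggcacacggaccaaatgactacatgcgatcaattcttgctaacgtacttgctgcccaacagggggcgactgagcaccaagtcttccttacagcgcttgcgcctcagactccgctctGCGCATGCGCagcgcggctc
Sdhd, with a log2 fold change of 1.57, held an estrogen-related receptor site from base 37 after the start, and Uqcrc1 held a pair of overlapping NRF1 cores on opposite strands from bases 31 and 33. The estrogen-related receptor site occurred in 0.312% of tested genes, 0.617% of genes higher in BAT (5 of 811) and 0.442% of genes higher in iWAT (7 of 1582). The NRF1 core occurred in 5.59% of tested genes, 5.55% of genes higher in BAT and 2.65% of genes higher in iWAT.

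Complex IV, cytochrome c oxidase, carried tissue-specific subunits that went well beyond the rest. Of 16 tested subunits 13 were higher in BAT. Cox7a1 was 17.2, 51.2, 74.9, 42.4 and 20.5 CPM in iWAT and 563, 396, 422, 411 and 381 CPM in BAT (log2 fold change 3.400 ± 0.38 (SE), edgeR adjusted p = 3.54e-05), and Cox8b was 41.1, 119, 131, 62.5 and 37.1 CPM in iWAT and 937, 599, 704, 674 and 554 CPM in BAT (log2 fold change 3.15 ± 0.37 (SE), edgeR adjusted p = 4.84e-05). Both are also found in heart and skeletal muscle, and both were highest in BAT replicate 1, the BAT library with the least muscle RNA. That library still held 1486 CPM of muscle genes, against at most 291 CPM in iWAT replicates 1, 2, 3 and 5. The part of muscle RNA in Cox7a1 and Cox8b was not tested. Cox6a2, another muscle-type subunit, behaved otherwise: it was 1.38, 0.3596, 0.0719, 20.8 and 0.505 CPM in iWAT and 6.87, 76.6, 46.9, 46.9 and 62.04 CPM in BAT, lowest of the BAT libraries in replicate 1, and was not called (edgeR adjusted p = 0.03301). The other 2 members not called were Cox8a (log2 fold change 0.95) and Cox7a2l (0.77), both under the fold threshold with depots that did not overlap.

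In ATP synthase the subunits differed among themselves. Of 16 tested genes 10 were higher in BAT, including the catalytic subunits Atp5a1 (log2 fold change 1.56) and Atp5b. Atp5b was 2435, 2887, 3585, 2634 and 2929 CPM in iWAT and 8316, 7377, 8529, 7352 and 8210 CPM in BAT (log2 fold change 1.46 ± 0.13 (SE), edgeR adjusted p = 1.14e-05). The 3 genes that encode the same mature c subunit of the rotor ring did not share this difference. Atp5g3 was 279.8, 361, 403, 428 and 351 CPM in iWAT and 189.95, 188, 218, 217 and 217 CPM in BAT (log2 fold change −0.82 ± 0.12 (SE), edgeR adjusted p = 0.000224), lower in every BAT library than in any iWAT library though under 2-fold. Atp5g1 and Atp5g2 had log2 fold changes of 0.37 and 0.57. In BAT replicate 1 against the iWAT libraries low in muscle genes Atp5g1 was −1.07. Summed per length, the 3 genes gave 689 to 888 FPKM, a unit scaled to transcript length and library size, in iWAT and 583 to 660 FPKM in BAT. The ratio of that sum to the FPKM of Atp5b was 0.499 to 0.641 in iWAT and 0.162 to 0.195 in BAT, a description chosen after the values were seen and not tested. The inhibitory factor gene Atpif1 was also lower in every BAT library (log2 fold change −0.78, edgeR adjusted p = 7.1e-05). Atpif1 and Atp5g3 were below 0 with TMM, upper-quartile, library-size and DESeq2 scaling.

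The supply of electrons followed the chain. Of 29 tested genes of the citrate cycle and pyruvate entry 24 were higher in BAT and 1 in iWAT, with a median of 1.56. Citrate synthase (Cs) was 854, 1112, 1371, 883 and 947 CPM in iWAT and 3106, 3048, 3148, 3047 and 3015 CPM in BAT (log2 fold change 1.57 ± 0.14 (SE), edgeR adjusted p = 1.21e-05), and Suclg1, a subunit of succinyl-CoA ligase, was 198, 249.7, 315, 202 and 206 CPM in iWAT and 1701, 1459, 1525, 1382 and 1330 CPM in BAT (log2 fold change 2.66 ± 0.16 (SE), edgeR adjusted p = 1.67e-06). The partner subunits of that ligase differed from each other: Sucla2, of the ADP-forming enzyme, had a log2 fold change of 2.301 and Suclg2, of the GDP-forming enzyme, of 0.702. Of the pyruvate dehydrogenase kinases, which switch off glucose oxidation, Pdk4 (2.33) and Pdk2 (1.43) were higher in BAT, Pdk3 (−1.55) was higher in iWAT and Pdk1 was not called (0.63). Pyruvate carboxylase (Pcx) was also not called, at −0.56.

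Members of fatty acid oxidation differed among themselves. Of 33 tested members 19 were higher in BAT (57.6%, against 7.22% of all genes tested) and 2 in iWAT (6.06%, against 14.7%), with a median of 1.44. Of the mitochondrial spiral, Acaa2, its thiolase, was 351, 439, 562, 328 and 332 CPM in iWAT and 4021, 3224, 3405, 3222 and 3523 CPM in BAT (log2 fold change 3.11 ± 0.18 (SE), edgeR adjusted p = 1.36e-06), and Hadhb, Acadvl, Acadl and Acadm had log2 fold changes of 2.25, 2.101, 2.06 and 1.73. The peroxisomal genes Acaa1a, Ehhadh and Hsd17b4 lay between 0.15 and 0.38, and none of these were called, with Acaa1a below 0 under library-size scaling. In the deposited annotation of the whole peroxisome pathway 11 of 74 genes were higher in BAT (14.9%, against 7.22% of all genes tested) and 1 in iWAT (1.35%, against 14.7%). The 2 members higher in iWAT were Cpt1a (−1.44), the liver-type carnitine palmitoyltransferase, and Slc27a1 (−1.82), a fatty acid transporter. Mitochondrial biogenesis and dynamics showed smaller differences, with 10 of 32 genes higher in BAT (31.25%, against 7.22% of all genes tested), none in iWAT and a median of 0.80. The mitochondrial transcription factor Tfam (0.74), the voltage-dependent channels Vdac1 to Vdac3 (0.78 to 0.81) and Nrf1 (−0.24) were all below 2-fold. The genes of inner membrane structure and fusion, Immt (1.26), Opa1 (1.13) and Mfn1 (1.29), were called, while Mfn2 was not (0.56).

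**Figure D5:**
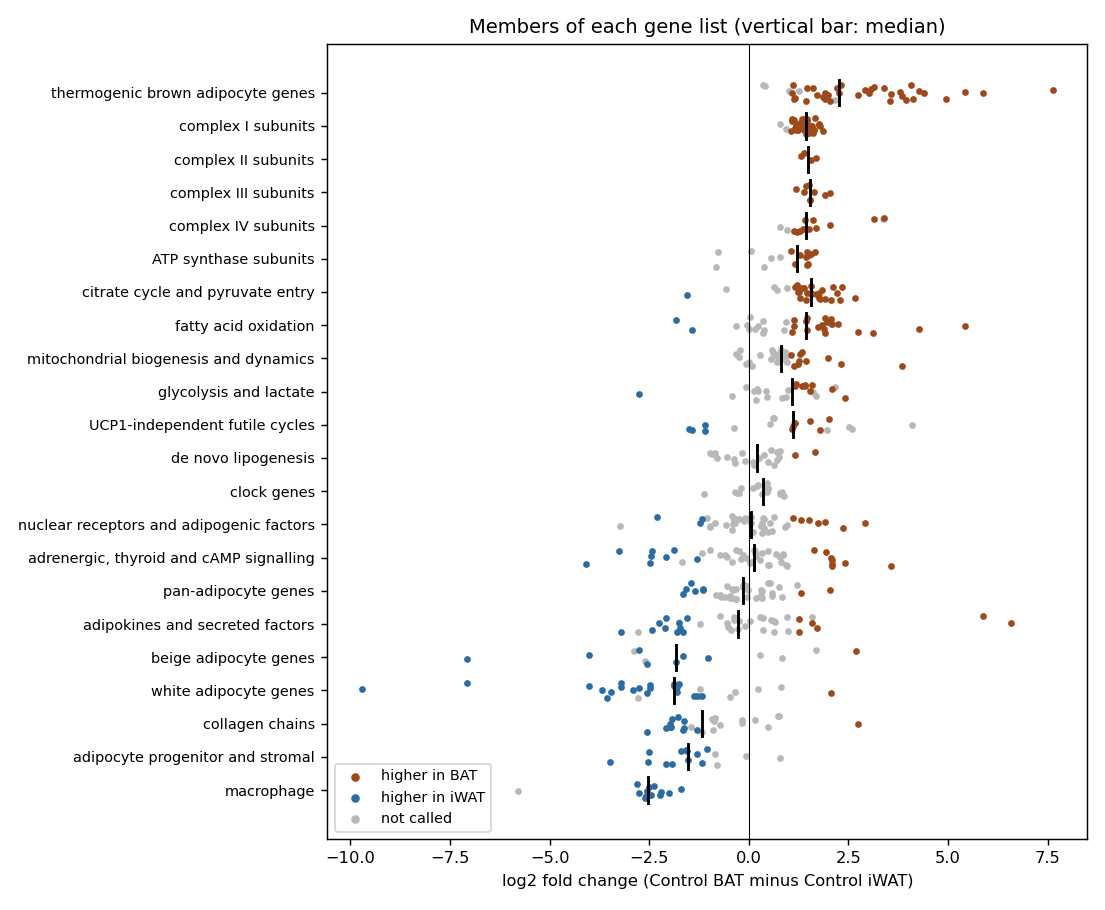
Each point is a tested member of the gene list named at the left, placed by its log2 fold change, Control BAT minus Control iWAT, with colours for genes called higher in BAT or iWAT and a bar at the list's median. Thermogenic, respiratory and citrate cycle genes lie to the right, with medians from 1.22 to 2.26, lipogenic, clock and pan-adipocyte genes straddle 0, and white, collagen, stromal and macrophage genes lie to the left.

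Since related proteins often divide work between tissues, the ratio of 22 gene pairs was compared within each library from FPKM, with exact two-sided permutation tests and adjustment over the pairs. The ratio differed at an adjusted p below 0.05 for 18 pairs, and 0.00794 was the smallest p the design allowed. Ucp1 to Ucp2 had a median of 0.826 in iWAT (range 0.0393 to 1.73) and 67.3 in BAT (range 34.3 to 87.6) (exact permutation p = 0.00794, adjusted p = 0.012). Cpt1b to Cpt1a had a median of 1.15 in iWAT (range 0.414 to 2.85) and 68.6 in BAT (range 51.1 to 107) (exact permutation p = 0.00794, adjusted p = 0.012), so the muscle-type form went from near parity to a large excess. Cidea to Cidec, the lipid droplet proteins of brown and white adipocytes, had a median of 0.101 in iWAT (range 0.0413 to 0.324) and 6.401 in BAT (range 3.95 to 7.84), and Cox7a1 to Cox7a2 had a median of 0.307 in iWAT (range 0.171 to 0.416) and 1.17 in BAT (range 1.09 to 1.33), each with adjusted p = 0.012 by the same exact test. Ldhb to Ldha, the lactate dehydrogenase subunits, had a median of 0.216 in iWAT (range 0.153 to 0.304) and 0.861 in BAT (range 0.663 to 1.005) (exact permutation p = 0.00794, adjusted p = 0.012). For Ppargc1a to Ppargc1b the ratio was 0.894 in iWAT and 0.807 in BAT at the median, and for Cox4i2 to Cox4i1 it was 0.00272 and 0.00273, with adjusted exact permutation p of 0.28 and 0.83. The ratios Pdk4 to Pdk2 and Atp2a2 to Atp2a1 had an adjusted p of 0.052 by the same exact test. Many of the pairs contain members of the thermogenic list, so these ratios restate part of that contrast on a scale free of library normalization.

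Genes of glucose use differed as well. Of 24 tested genes of glycolysis and lactate handling 9 were higher in BAT and 1 in iWAT, with a median of 1.08. The shares were 37.5% and 4.17%, against 7.22% and 14.7% of all genes tested. Hk2, the insulin-regulated hexokinase, was 105, 175, 135, 225 and 249 CPM in iWAT and 742, 521, 509.6, 395 and 493 CPM in BAT (log2 fold change 1.58 ± 0.25 (SE), edgeR adjusted p = 0.000303), and Ldhb was 298, 228, 285, 134 and 132 CPM in iWAT and 1495, 1408, 1007, 919.9 and 886 CPM in BAT (log2 fold change 2.41 ± 0.28 (SE), edgeR adjusted p = 4.12e-05). The lactate transporter Slc16a1 (2.09) and Pfkl (1.54) were called in the same direction, and the glucose transporter Slc2a4 was higher in every BAT library but under 2-fold (0.83). Hk3 (−2.77), a hexokinase of myeloid cells, was the member higher in iWAT, where macrophage genes were higher too. Eno3, Pfkm and Pgam2, the muscle forms, were high in iWAT replicate 4 and were not called. Of de novo lipogenesis 2 of 22 tested genes were higher in BAT (Acacb, 1.65, and Mlxipl, 1.16), 9.09% against 7.22% of all genes tested. None were higher in iWAT, against 14.7% of all genes tested, and the median was 0.20. Fasn, fatty acid synthase, was 12209, 10198, 11801, 6570 and 10502 CPM in iWAT and 14388, 12926, 21595, 12516 and 10003 CPM in BAT (log2 fold change 0.48 ± 0.23 (SE), edgeR adjusted p = 0.0975), a difference smaller than the spread between libraries.

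The futile cycles that can make heat without UCP1 gave counts that changed with the libraries used. Of 19 tested members 6 were higher in BAT (Pm20d1, Alpl, Slc6a8, Ucp3, Slc25a4 and Atp2a2) and 4 in iWAT (Gatm, Atp2a3, Gamt and Ucp2). These were 31.6% and 21.1%, against 7.22% and 14.7% of all genes tested. Without iWAT replicate 4, 11 were higher in BAT, and the number higher in iWAT was 1 without iWAT replicate 1 and 1 without BAT replicate 3. Ckmt2, the mitochondrial creatine kinase of muscle, was 0.385, 0.2398, 0.144, 37.9 and 1.04 CPM in iWAT and 16.8, 229, 148, 119.9 and 169.6 CPM in BAT (edgeR adjusted p = 0.02803), with BAT replicate 1 and iWAT replicate 4 out of keeping with their groups as for muscle genes in general. The enzymes that make creatine, Gatm (−1.495) and Gamt (−1.11), were higher in iWAT, whereas its transporter Slc6a8 (1.53) and the phosphatase Alpl (1.799) were higher in BAT. Sln, sarcolipin, had at most 0.136 CPM in iWAT and 0.344 to 8.56 CPM in BAT and did not pass the filter on low counts.

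White adipocyte genes went the other way. Of 29 tested members 21 were higher in iWAT, against 14.7% of all genes tested, 1 was higher in BAT and the median was −1.87. The list shares Hoxc8, Hoxc9 and Hoxc10 with the Hox genes described above, and these are 3 of the 21. Retn, resistin, was 617, 1163, 1236, 1364 and 1042 CPM in iWAT and 54.5, 92.6, 109, 208 and 120.2 CPM in BAT (log2 fold change −3.21 ± 0.34 (SE), edgeR adjusted p = 2.8e-05). Nnat, neuronatin, an imprinted gene, was 743, 660.3, 465, 738 and 781 CPM in iWAT and 50.4, 51.6, 43.5, 69.3 and 50.3 CPM in BAT (log2 fold change −3.68 ± 0.18 (SE), edgeR adjusted p = 1.06e-06). Slc7a10, an amino acid transporter of white adipocytes, was 179, 183, 142, 185 and 233 CPM in iWAT and 6.402, 12.96, 13.99, 21.9 and 22.3 CPM in BAT (log2 fold change −3.57 ± 0.31 (SE), edgeR adjusted p = 9.61e-06). None of these overlapped between depots. Inhbb, an activin subunit gene, was 20.4, 17.7, 7.904, 42.8 and 55.2 CPM in iWAT and 1.12, 1.45, 1.45, 1.38 and 3.52 CPM in BAT (log2 fold change −4.01 ± 0.54 (SE), edgeR adjusted p = 0.000119). The member higher in BAT was Aspg, an asparaginase homologue (log2 fold change 2.06), with 14.4, 30.7, 78.2, 26.7 and 29.3 CPM in iWAT and 179, 99.5, 189, 196 and 83.5 CPM in BAT.

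Leptin, the best known hormone of white fat, did not pass the test. Lep was 117, 319, 51.01, 940.3 and 1276 CPM in iWAT and 42.1, 29.7, 80.6, 43.4 and 199 CPM in BAT (log2 fold change −2.78 ± 0.85 (SE), edgeR adjusted p = 0.0178). The mean was higher in iWAT, but the iWAT libraries spanned 25.02-fold and the lowest of them lay below a pair of BAT libraries. iWAT replicates 4 and 5, the lowest for Ucp1, were the highest for Lep and for Inhbb. The Lep promoter is shown for its C/EBP site, in capitals, which started 55 bases before the start.
Lep, chr6:29059971-29060270, plus strand: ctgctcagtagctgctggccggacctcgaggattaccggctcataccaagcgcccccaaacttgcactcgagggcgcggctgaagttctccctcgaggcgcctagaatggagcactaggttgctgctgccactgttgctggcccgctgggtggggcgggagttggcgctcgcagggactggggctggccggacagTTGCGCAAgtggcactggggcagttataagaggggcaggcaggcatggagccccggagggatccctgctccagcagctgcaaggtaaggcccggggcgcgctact
The same letters occurred in 0.339% of tested genes in 0.379% of genes higher in iWAT (6 of 1582) and in none of the 811 genes higher in BAT.

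Genes used as beige markers did not mark BAT. Of 13 tested members 7 were higher in iWAT (53.8%, against 14.7% of all genes tested) and 1 in BAT (7.69%, against 7.22%). Tmem26 was 2.09, 3.33, 3.7003, 2.52 and 2.16 CPM in iWAT and 0.258, 0.141, 0.0856, 0.0983 and 0.262 CPM in BAT (log2 fold change −4.01 ± 0.36 (SE), edgeR adjusted p = 1.09e-05), and Slc27a1, Klhl13, Sp100, Ear2, Shox2 and Hoxc9 were the others higher in iWAT. Ear2 also belongs to a family expressed in myeloid cells, Hoxc9 and Shox2 are positional genes, and the iWAT libraries with least Ucp1 lay within the range of the others for Tmem26. P2rx5 was the member higher in BAT (log2 fold change 2.703), at 11.3, 20.1, 17.96, 18.2 and 15.1 CPM in iWAT and 122, 87.7, 128, 98.96 and 102 CPM in BAT. Cited1 was too low to test.

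The genes that both kinds of adipocyte need were called about as often as genes in general. Of 39 tested pan-adipocyte members 2 were higher in BAT (5.13%, against 7.22% of all genes), 6 in iWAT (15.4%, against 14.7%) and 31 were not called, with a median of −0.15. The depots did not overlap for 16 of the 39, near the share of 37.2% over all genes tested. Fabp4, the most abundant transcript per length in both depots, was 12331, 18432, 16080, 17800 and 16498 CPM in iWAT and 15416, 15872, 15624, 12680 and 14079 CPM in BAT (log2 fold change −0.14 ± 0.14 (SE), edgeR adjusted p = 0.424). Adipoq, adiponectin, was 2452, 3162, 3306, 2910 and 3625 CPM in iWAT and 2144, 2020, 2038, 2203 and 2202 CPM in BAT (log2 fold change −0.54 ± 0.12 (SE), edgeR adjusted p = 0.00316), lower in every BAT library but by less than 2-fold. Pparg, the master regulator of adipogenesis, had a log2 fold change of 0.59, Cebpa of −0.10 and the lipases Pnpla2 and Lipe of 0.33 and −0.04. The 2 members higher in BAT were Gpd1 (2.05), which makes glycerol 3-phosphate, and Cebpb (1.31), and the 6 higher in iWAT were Lpl, Cidec, Plin4, Tmem120a, Fabp5 and Cfd, from −1.14 to −1.65. Of the 15 genes with the highest mean FPKM in each depot, 6 were shared: Fabp4, Car3, Scd1, Cfd, Gpx3 and Thrsp. In BAT the list went on with Atp5b, Ndufa4, Cox6b1, Cox6c, Ucp1 and Cidea, and Ucp1 reached 2478 FPKM as the mean against 19111 FPKM for Fabp4.

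Secreted factors moved both ways, with 6 of 39 higher in BAT and 10 in iWAT. The shares were 15.4% and 25.6%, against 7.22% and 14.7% of all genes tested. Kng2, a kininogen that is the precursor of bradykinin, was 0.952, 0.959, 2.51, 1.63 and 1.15 CPM in iWAT and 153, 178, 136, 127 and 85.5 CPM in BAT (log2 fold change 6.58 ± 0.33 (SE), edgeR adjusted p = 1.06e-06). Bmp8b, a secreted factor that raises the thermogenic response, was 0.263, 0.1499, 0.323, 0 and 0 CPM in iWAT and 6.49, 14.4, 12.6, 5.77 and 5.01 CPM in BAT (log2 fold change 5.88 ± 0.75 (SE), edgeR adjusted p = 8.3e-05). Nampt, which makes a precursor of NAD, was 129.98, 282, 242, 327 and 344 CPM in iWAT and 802, 752, 922, 698 and 802 CPM in BAT (log2 fold change 1.59 ± 0.23 (SE), edgeR adjusted p = 0.000171). All 3 were disjoint between depots. The iWAT side held Retn, Fbn1 (−2.43), the source of asprosin, Igf1 (−2.25), C1qtnf1 (−2.11), Agt (−1.81), Metrnl (−1.72), Apoe (−1.55) and Cfd. Vegfa and Vegfb, which act on vessels, were higher in every BAT library but below 2-fold (0.96 and 0.65), and Nrg4 and Fam132a overlapped. Rbp4, like Lep, was not called (log2 fold change −1.75, edgeR adjusted p = 0.0173).

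The route from noradrenaline to cAMP differed in which family members were higher. Of 47 tested genes of adrenergic, thyroid and cAMP signalling 8 were higher in BAT and 8 in iWAT, 17.02% each against 7.22% and 14.7% of all genes. Of the receptors, Adrb1 was 1.92, 3.27, 2.19, 4.098 and 2.72 CPM in iWAT and 13.4, 8.72, 7.32, 14.7 and 16.8 CPM in BAT (log2 fold change 2.100 ± 0.28 (SE), edgeR adjusted p = 0.00011997), and Adra1a was 15.5, 29.4, 23.998, 13.3 and 14.2 CPM in iWAT and 92.5, 50.8, 91.2, 70.7 and 97.99 CPM in BAT (log2 fold change 2.07 ± 0.26 (SE), edgeR adjusted p = 7.24e-05). Adrb3, the main β-receptor of rodent fat, was 580.3, 342, 388, 249 and 281 CPM in iWAT and 233, 342, 229.9, 169 and 142 CPM in BAT and was not called (edgeR adjusted p = 0.04403). Gnas, the stimulatory G protein, was 482, 523, 524, 519 and 562 CPM in iWAT and 2865, 2019, 2027, 2042 and 2165 CPM in BAT (log2 fold change 2.09 ± 0.13 (SE), edgeR adjusted p = 2.02e-06). Among adenylyl cyclases, Adcy9 (1.94) and Adcy3 (1.65) were higher in BAT and Adcy5 (−3.25) and Adcy7 (−2.43) in iWAT. Adcy5 was 222, 165, 165, 85.1 and 128 CPM in iWAT and 4.34, 12.996, 13.4, 34.6 and 14.7 CPM in BAT. Some members that restrain cAMP were higher in iWAT, namely Gnai1 (−1.31), Adra2a (−2.45), the lactate and niacin receptors Hcar1 (−1.87) and Hcar2 (−2.47), and the short-chain fatty acid receptor Ffar2 (−4.08), whereas the adenosine receptor Adora1, which also acts through inhibitory G proteins, was not called (−0.32). The phosphodiesterases Pde4a (2.41) and Pde4d (2.09), which degrade cAMP, were higher in BAT, while Pde3b (0.07) overlapped. The protein kinase A genes Prkaca and Prkar2b were higher in every BAT library but under 2-fold (0.68 and 0.96).

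Of 41 nuclear receptors and adipogenic factors 7 were higher in BAT (17.1%, against 7.22% of all genes tested) and 3 in iWAT (7.32%, against 14.7%). Ppara, with 24.99, 56.1, 34.2, 39.5 and 40.8 CPM in iWAT and 359.6, 185, 343, 179 and 424 CPM in BAT (log2 fold change 2.93 ± 0.29 (SE), edgeR adjusted p = 2e-05), had the largest difference among those called. Nr4a1 (2.37), Rarb (1.91) and Nr4a2 (1.73) followed. Without BAT replicate 4 Nr4a1 was 1.71, and its call was lost in 6 of the fits that lacked 1 library. Those higher in iWAT included Cebpd (−1.22) and Zfp423 (−1.16), a factor that restrains the thermogenic program, and the number higher in iWAT rose to 8 with library-size scaling. The clock genes were not called in any case: 0 of 18 passed by edgeR, 4 had an unadjusted p below 0.05, and DESeq2 called 0. Of 6 erythrocyte genes 0 were called by edgeR, with 1 at an unadjusted p below 0.05 and 0 called by DESeq2, and of 10 cytosolic stress genes 0 were called by edgeR, with 3 and 1 by the same measures.

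Collagen genes leaned to iWAT. Of 25 tested collagen chains 11 were higher in iWAT, 1 in BAT and the median was −1.17. Col1a1, the main fibrillar chain, was 1009, 447, 415, 244 and 446 CPM in iWAT and 89.6, 110.4, 130.4, 200.2 and 147 CPM in BAT (log2 fold change −1.92 ± 0.35 (SE), edgeR adjusted p = 0.000857), and Col3a1 (−1.99), Col5a2 (−1.95) and Col14a1 (−2.55) went the same way. Col27a1, by contrast, was 18.1, 8.78, 9.6998, 6.08 and 5.47 CPM in iWAT and 55.7, 50.2, 59.4, 87.9 and 69.6 CPM in BAT (log2 fold change 2.74 ± 0.32 (SE), edgeR adjusted p = 4.19e-05). Markers of adipocyte progenitors and stroma were lower in BAT as well, with 12 of 16 higher in iWAT (75.0%, against 14.7% of all genes tested) and none in BAT. Pdgfra, which marks these cells, was 119, 141, 137, 73.97 and 101 CPM in iWAT and 42.7, 62.8, 49.9, 62.3 and 38.4 CPM in BAT (log2 fold change −1.16 ± 0.20 (SE), edgeR adjusted p = 0.000523), and the markers of the earliest fascial progenitors, Pi16 (−2.503), Dpp4 (−2.52) and Wnt2 (−3.47), differed more. The whole list summed to 5950 to 9548 CPM in iWAT and 2532 to 3660 CPM in BAT. The part of the stromal cells in the collagen difference was not tested.

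Macrophage genes were higher in iWAT throughout, 13 of 14 being called. Csf1r, the receptor that sustains macrophages, was 342, 330.1, 299, 147 and 283 CPM in iWAT and 29.1, 41.5, 32.3, 66.5 and 39.04 CPM in BAT (log2 fold change −2.75 ± 0.28 (SE), edgeR adjusted p = 2.02e-05), and the list summed to 1655 to 3180 CPM in iWAT and 339 to 752 CPM in BAT. The B and T cell lists were called for 10 of 11 and 12 of 13 tested genes in iWAT, with median log2 fold changes of −5.53 and −4.80. Without iWAT replicates 1 and 4 the medians were −1.74 and −1.25 and 6 B cell and 3 T cell genes were called, without iWAT replicate 1 alone 7 and 6, and without any single BAT library 2 to 4 and 1 to 2. Cr2, a complement receptor of B cells, was 57.8, 0.3896, 0.431, 22.9 and 0.561 CPM in iWAT and 0.129, 0, 0, 0.0983 and 0 CPM in BAT. Epithelial genes followed the same pair, the glandular list summing to 116 and 53.9 CPM in iWAT replicates 1 and 4 and to between 18.5 and 27.97 CPM in the other iWAT libraries.

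Vascular genes leaned to BAT. Of 12 tested endothelial genes 4 were higher in BAT, namely the receptors Flt1, Tie1 and Kdr and the junction gene Cdh5, and 1, Vwf, was higher in iWAT. The shares were 33.3% and 8.33%, against 7.22% and 14.7% of all genes tested. Flt1 was 25.1, 32.8, 26.2, 21.98 and 26.9 CPM in iWAT and 92.03, 85.4, 77.8, 91.9 and 91.3 CPM in BAT (log2 fold change 1.72 ± 0.11 (SE), edgeR adjusted p = 2.73e-06). The whole list summed to 527 to 740 CPM in iWAT and 983 to 1475 CPM in BAT. Among lymphatic genes Lyve1 (−2.89) and Pdpn (−2.095) were higher in iWAT and Flt4 in BAT (1.05), and Lyve1 is carried by resident macrophages too. Of 11 pericyte and smooth muscle genes 3 were higher in BAT (27.3%, against 7.22% of all genes tested). They were Rgs5 (2.02), Kcnj8 (1.47) and Des (2.19), the last of which is also a muscle gene and overlapped between depots. The myelin gene Pmp22 was higher in iWAT, at −1.81. S100b, listed for Schwann cells and for brown adipocytes, went the other way, at 7.23, 11.2, 15.2, 5.32 and 5.298 CPM in iWAT and 142, 179.9, 95.4, 109 and 84.4 CPM in BAT (log2 fold change 3.79 ± 0.35 (SE), edgeR adjusted p = 1.23e-05).

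Several of the largest fold changes came from muscle genes. Of the 15 largest differences toward BAT, 7 were muscle genes, mostly of slow fibres: Myl2, Myh7, Tnni1, Tnnc1, Myoz2, Tnnt1 and Smtnl1. The ranking used the fitted fold, which depends on the prior count for genes with at most 3 counts in every library of a depot. Myl2 was 11.2, 340.01, 234, 174 and 246 CPM in BAT and at or under 3 counts in each iWAT library, at least 2372-fold higher in BAT, and Myh7 was 0.0607, 0, 0, 0.163 and 0 CPM in iWAT and 8.85, 201, 249, 121 and 346 CPM in BAT. Both were lowest in BAT replicate 1, and the 5 BAT libraries had the same order for the summed slow and the summed fast fibre genes. In iWAT replicate 4 the fast fibre genes reached BAT levels, but the 6 slow fibre genes summed to 3.04 CPM against 33.7 to 901 CPM in BAT, so slow genes separated the depots and fast genes did not. Of 22 skeletal muscle genes 4 were higher in BAT (18.2%, against 7.22% of all genes tested), and 22 were without iWAT replicate 4. The remaining genes on that side were Zic1, Zic4, Fabp3, Kng2, Gpx5 and the non-coding Gm9961, A530050N04Rik and A530065N20Rik. Gm9961 had no count in iWAT and 1.805, 0.5297, 1.54, 0.9502 and 1.42 CPM in BAT, at least 14.7-fold higher, and A530065N20Rik (8.46, 4.41, 8.301, 4.42 and 4.23 CPM in BAT) was at least 70.4-fold higher.

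Toward iWAT the 15 largest differences by fitted fold comprised 3 Hox genes, 8 genes of lymphocytes (among them Cr2, Fcer2a, Cd79a, Ltb, Faim3, Cd22 and Lef1), and H2-Q7, Tacr1, Alb and Rhbg. The lower bounds of Tacr1, Rhbg and H2-Q7 were 9.63-fold, 16.3-fold and 26.9-fold, below the 57.0-fold of Lef1, the last of the 15. Tacr1, the receptor of substance P, was 0.911, 0.839, 0.862, 1.82 and 1.09 CPM in iWAT with no count in BAT, at least 9.63-fold higher. Alb, albumin, was 9.19, 19.1, 11.4, 106 and 59.03 CPM in iWAT and 0.602, 0.106, 0.128, 0.426 and 0.636 CPM in BAT (log2 fold change −6.74 ± 0.87 (SE), edgeR adjusted p = 8.75e-05). Its log2 fold change was −6.01 without iWAT replicate 4. Rhbg, an ammonium transporter, was at least 16.3-fold higher in iWAT. H2-Q7 was 1.26, 3.84, 2.26, 4.37 and 3.6999 CPM in iWAT with no count in any BAT library after rounding, but its sequence is shared with other class I genes among which reads may have been divided, so the value is uncertain.

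The BAT library with the least muscle RNA, replicate 1, was also set against iWAT replicates 1, 2, 3 and 5, a comparison added after the data were seen in which the lone BAT library is assumed to vary like the others. The median log2 fold change of the thermogenic list was then 2.31, with 36 of 41 genes at least 2-fold higher in BAT (against 1454 of 14228 genes in general), that of the respiratory chain was 1.61, with 74 of 81 genes, and that of the white list −2.82, with 25 of 29 genes at least 2-fold higher in iWAT (against 2877 of 14228). With 1 library the test itself called 14, 7 and 11 of them. Muscle genes were not removed as a difference by this choice of libraries: all 22 were at least 2-fold higher in BAT, with a median of 3.59 against 2.24 over all libraries. The part of muscle RNA in the other lists was therefore not tested. Removing iWAT replicates 1 and 4 left 34 thermogenic and 69 respiratory genes higher in BAT and 21 white genes higher in iWAT, and all 22 muscle genes were then called higher in BAT. In that fit 1198 and 1838 of all 14416 genes tested were called higher in BAT and in iWAT.

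Igbp1, which encodes α4 and is intact in all these animals, was 54.96, 67.5, 73.3, 63.3 and 61.9 CPM in iWAT and 85.5, 94.7, 90.8, 86.01 and 80.2 CPM in BAT (log2 fold change 0.45 ± 0.09 (SE), edgeR adjusted p = 0.00192). It was higher in every BAT library than in any iWAT library, but below 2-fold and so not called.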

How the data were processed

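Poly(A) RNA from whole tissue was sequenced by the authors as stranded paired reads (TruSeq Stranded mRNA, NovaSeq). Per the submitters' processing notes reads were demultiplexed with bcl2fastq 2 and aligned with STAR 2.5.3a to mm10, and the counting tool and annotation release are not given in the sources used here. The values deposited by the authors are each an expected count (estimated count) of reads per gene, not normalized, of which 76.6% of nonzero values are whole numbers. The FPKM in the same table were made by the authors from these counts, transcript width and library size, with replicates kept separate. Reads of near-identical genes may have been divided between them in these estimates.

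Counts were rounded to whole numbers and tested with edgeR 4.0.16 in R 4.3.3 (filterByExpr, TMM factors, quasi-likelihood test) on the 10 Control libraries, with Benjamini-Hochberg adjustment over 14260 genes and calls at adjusted p below 0.01 and 2-fold. CPM are normalized by TMM, a fold against a depot with at most 3 counts in every library was computed against 3 counts per library, and FPKM ratios took a pseudocount of 0.01. DESeq2 1.42.0 and limma 3.58.1 served as alternatives, with the others named in the closing section. The steps were run on simulated counts that varied less between libraries than these data and held no outlying library, so that run checked the code only. Labels give separate samples per depot, not whether 1 mouse gave both, so p-values measure the spread between these samples. Promoters are RefSeq's (GRCm38.p6). Named genes were α4, the members of the gene lists and isoform pairs, the 15 largest differences per direction with at least 1 CPM in the higher depot and the 15 highest FPKM per depot. The members and lists were chosen with earlier results of these data known, and the slow and fast fibre lists after the values were seen. Results for a few genes are not reported here.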

Additional observations from a re-analysis of the deposited data

Results flagged for a closer look

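In each depot 1 library was compared with the other 4 by its gap to the nearest of them over the whole range, for 592 sets of values on a log2 scale, and 51 had a gap share above 0.71, Dixon's 95% critical value for 5 samples. Chance flags about 1 in 20 groups, and the values of 1 library are not independent of each other. Of them 17 were in iWAT replicate 4 and 15 in BAT replicate 1, the libraries that stand apart in skeletal muscle genes.

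iWAT replicate 1 was the highest library, with the gap share in brackets, for Irx1 (0.925) and Nrf1 (0.716). iWAT replicate 1 was the lowest library, with the gap share in brackets, for Pdk1 (0.891). iWAT replicate 3 was the highest library, with the gap share in brackets, for Atp5g2 (0.736) and glycolysis and lactate (0.763). iWAT replicate 4 was the highest library, with the gap share in brackets, for Ckmt2 (0.836), Cox6a2 (0.736), Eno3 (0.842), Eya1 (0.795), Gpx5 (1.0), Myf5 (1.0), Myoz2 (0.954), Pax7 (1.0), Pgam2 (0.735), Six4 (0.717), Sln (0.783), Smtnl1 (1.0) and UCP1-independent futile cycles (0.793). iWAT replicate 4 was the lowest library, with the gap share in brackets, for Csf1r (0.778), Pi16 (0.734), macrophage (0.715) and adipocyte progenitor and stromal (0.733).

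BAT replicate 1 was the highest library, with the gap share in brackets, for Cox7a1 (0.741) and Gnas (0.801). BAT replicate 1 was the lowest library, with the gap share in brackets, for Atp2a1 (0.729), Ckmt2 (0.748), Cox6a2 (0.789), Eno3 (0.734), Myl2 (0.8), Myoz2 (0.766), Pgam2 (0.714), Smtnl1 (0.79), Tbx15 (0.717), Tnnc1 (0.827), Tnni1 (0.783), Tnnt1 (0.729) and skeletal muscle (0.735). BAT replicate 2 was the highest library, with the gap share in brackets, for Ehhadh (0.733) and Hoxa5 (0.866). BAT replicate 2 was the lowest library, with the gap share in brackets, for Acaa1a (0.76), Pde4a (0.71) and Pnpla2 (0.722). BAT replicate 3 was the highest library, with the gap share in brackets, for Ebf2 (0.741). BAT replicate 4 was the highest library, with the gap share in brackets, for Aldh1a2 (0.725), Hk3 (0.781) and Hoxb5 (0.749). BAT replicate 4 was the lowest library, with the gap share in brackets, for Dio2 (0.723) and adrenergic, thyroid and cAMP signalling (0.756). BAT replicate 5 was the highest library, with the gap share in brackets, for Inhbb (0.805) and Mfn1 (0.749). BAT replicate 5 was the lowest library, with the gap share in brackets, for Ldha (0.811).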

How the results depend on the processing

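The counts of genes higher in BAT and in iWAT, 1030 and 2092, ranged from 967 to 1225 and from 1845 to 2104 when each library was left out in turn. They were 536 and 1252 with limma on log2(FPKM + 1), 265 and 995 when a 4-fold difference was required, and 260 and 430 in BAT replicate 1 against iWAT replicates 1, 2, 3 and 5, where 1 arm has a single library. In that last comparison 14 thermogenic, 7 oxidative phosphorylation, 4 citrate cycle and 5 fatty acid oxidation genes were called higher in BAT and 11 white and 5 Hox genes higher in iWAT. Hox genes higher in iWAT numbered 5 when at least 10 counts were required in every library, which removes genes absent from BAT, and 6 with limma on log2(FPKM + 1). Over the fits that lacked 1 library, the called genes numbered 34 to 37 for thermogenic, 68 to 72 for oxidative phosphorylation, 24 to 25 for citrate cycle, 18 to 20 for fatty acid oxidation, 20 to 22 for white and 8 to 11 for Hox genes.

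Library-size scaling gave 740 and 2496 calls, upper-quartile scaling 876 and 2263, DESeq2 1229 and 2440, no filter 1142 and 2122, at least 10 counts in every library 857 and 1593, limma on log2(FPKM + 0.1) 714 and 1819, all 20 libraries in the fit 1118 and 2346, an adjusted p below 0.05 in place of 0.01 1189 and 2361, and glmTreat against 1.5-fold 875 and 1628. The other alternatives, the most variable genes alone for the principal components and CPM in place of FPKM ratios, moved no value past its spread or threshold. Of the called genes that each alternative tested none changed sign, except 1 in the comparison with the single BAT library. The limma fits tested 915 of the 1030 and 1629 of the 2092, and the filter of 10 counts 897 and 1539. Of the genes named in the text 8 changed sign under some alternative, and all 8 were genes that were not called. Of 195 named genes that were called, 119 lost the call in the single-library comparison and 37 under some other alternative, 24 of these when 1 library was left out (Atp2a2, Atp2a3, Cd22, Cd79a, Cr2, Cyp26b1, Ear2, En1, Eya1, Faim3, Fcer2a, Flt4, Gamt, Hoxb6, Hoxb9, Lef1, Ltb, Nr4a1, Prdm16, Six4, Sp100, Ucp2, Ucp3 and Vwf) and the others (Bckdha, Cd59b, Cdh5, Cox4i1, Cox4i2, Des, Ebf2, Gata2, Hoxc4, Mlxipl, Opa1, Slc25a4 and Zfp423) only under other settings. Leaving out 1 library moved the fold of 22 called genes by over 1.5 times on the linear scale: without iWAT replicate 4 the log2 fold change was −6.01 for Alb, 2.79 for Des, 3.25 for Eya1, 9.24 for Fabp3, −4.94 for Lef1, 12.9 for Myh7, 11.1 for Myoz2 and 11.8 for Smtnl1, without iWAT replicate 3 the log2 fold change was 5.94 for Cyp2b10 and 6.06 for Slc27a2, without iWAT replicate 1 the log2 fold change was −4.29 for Cd22, −4.72 for Cd79a, 4.24 for Dio2, −4.53 for Faim3, −4.86 for Fcer2a and −4.697 for Ltb, without BAT replicate 4 the log2 fold change was −3.06 for Aldh1a2, −3.76 for Bco1, −3.52 for Ear2, −4.69 for Ffar2 and 1.71 for Nr4a1, without BAT replicate 3 the log2 fold change was 3.36 for Elovl3 and without BAT replicate 1 the log2 fold change was −6.72 for Faim3. For Myh7, Myoz2 and Smtnl1 no iWAT library but replicate 4 held more than 3 counts. Their values without that library therefore depend on the prior count of the fit and are not measured folds. Acaa1a was −0.0474 by library size, −0.0456 by limma on log2(FPKM + 1) and −0.0466 by limma on log2(FPKM + 0.1). Atp5g1 was −1.07 in the single-library comparison. Ehhadh was −0.0303 in the single-library comparison. Irf4 was −0.819 to 0.178 over the fits without 1 library. Lipe was −0.137 to 0.0377 over the fits without 1 library. Pde3b was −0.116 by library size, −0.0158 by upper quartile, −0.1001 by limma on log2(FPKM + 1), −0.101 by limma on log2(FPKM + 0.1), −0.0206 without iWAT replicates 1 and 4 and −0.0714 in the single-library comparison. Scd1 was −0.0162 by limma on log2(FPKM + 1), −0.0163 by limma on log2(FPKM + 0.1), −0.541 in the single-library comparison and −0.0213 to 0.4599 over the fits without 1 library. Zfp516 was −0.376 to 0.0139 over the fits without 1 library. The cause was not tested.

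Samples that share a replicate number did not all deviate together (r of 0.209, 0.000, 0.031, −0.080 and 0.285 for numbers 1 to 5), and 2 of the 5 iWAT libraries, but no BAT library, correlated best with the other depot's library of their own number. The numbers were not used to pair the depots. With the replicate number as a block, 1021 and 1927 genes were called and T cell genes higher in iWAT numbered 3 rather than 12. A pairing by animal is not given in the labels.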

Other observations

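Pathway annotations carried in the deposited table were counted for the 235 pathways with at least 20 tested genes, as a description made after the values were seen and without a test. Complement and coagulation genes were 1 of the groups outside the lists above: 28 of 47 were higher in iWAT and 2 in BAT, against 14.7% and 7.22% of all genes tested. They covered the classical pathway (C4b, 1062 ± 405 CPM, SD, n = 5, in iWAT and 59.1 ± 41.7 CPM in BAT, and C2, log2 fold change −2.88), the alternative pathway (Cfb, 331 ± 80.3 and 31.1 ± 13.01 CPM), the terminal component C6 (−5.43) and the receptor C3ar1 (−2.47). Macrophage genes, which include C1qa, C1qb and C1qc, were higher in iWAT too, and their part in the other complement genes was not tested. The 2 members higher in BAT were the kininogen Kng2 and Cd59b (1.29), an inhibitor of the membrane attack complex.

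Of 28 genes of retinol metabolism 8 were higher in iWAT and 3 in BAT, against 14.7% and 7.22% of all genes tested, and the others were not called. Aldh1a2, which makes retinoic acid, was 6.02 ± 1.96 CPM in iWAT and 1.17 ± 1.04 CPM in BAT, Bco1, which cleaves carotene, had a log2 fold change of −2.75 and Cyp26b1, which degrades retinoic acid, of −1.57. Without BAT replicate 4 the log2 fold change of Aldh1a2 went from −2.34 to −3.06 and that of Bco1 to −3.76. The call of Cyp26b1 was lost in 6 of the fits that lacked 1 library. Cyp2b10, a xenobiotic-inducible cytochrome P450, was 3.32 ± 3.16 CPM in iWAT and 128 ± 63.5 CPM in BAT (log2 fold change 5.29 ± 0.74 (SE), edgeR adjusted p = 0.000146). Branched-chain amino acid breakdown leaned to BAT, with 15 of 47 genes higher there (31.9%, against 7.22% of all genes tested) and 4 in iWAT (8.51%, against 14.7%). Several of the 15 also serve fatty acid oxidation, and Bckdha, the branched-chain ketoacid dehydrogenase subunit, was 287 ± 57.8 CPM in iWAT and 638 ± 109 CPM in BAT (log2 fold change 1.15 ± 0.16 (SE), edgeR adjusted p = 0.000174). Gyk, glycerol kinase, was 12.96 ± 3.62 CPM in iWAT and 109 ± 36.95 CPM in BAT (log2 fold change 3.08 ± 0.27 (SE), edgeR adjusted p = 1.11e-05). The genes in these paragraphs that belong to no list above were chosen after their values were seen.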
